A study of Mus musculus with 30 samples.

Results

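The 7 hearts described here are the pressure-overloaded hearts of mice that had received either a Cpt1a vector or saline. They were chosen by their labels: the 4 libraries of the group AAV_TAC (AAV9.Cpt1a and transverse aortic constriction) and the 3 of the group PBS_TAC (saline and the same surgery), out of 30 mouse heart libraries in the series and 14 in the AAV9 cohort. Both groups are C57Bl/6 mice. Transverse aortic constriction (TAC) narrows the aorta with a clip, of 0.016 or 0.018 inch without a statement of which mouse had which, and hearts were taken 8 weeks after the operation. The other 7 hearts of the cohort, also from C57Bl/6 mice, had a sham operation, 3 after saline (PBS_sham) and 4 after the vector (AAV_sham). The remaining hearts of the series, used below in a few comparisons, are labelled CPT1a floxed or cardiac specific CPT1a knockout, after sham surgery or TAC. The study asked what more Cpt1a does in a heart under pathological load. AAV9 is an adeno-associated virus capsid that reaches the heart, and the design text names the construct AAV9.cTNTN.Cpt1a, read here as a cardiac troponin T promoter, which is active in heart muscle cells. The control is saline and not an empty vector or one with another cargo, so capsid, vector genome and Cpt1a cannot be told apart in any difference below. Vector dose, age at injection and the hour of collection are not given in the sources used here, and the labels do not say more of the animals than 1 heart for each library, so the p-values measure the spread between these libraries.

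Cpt1a encodes the liver form of carnitine palmitoyltransferase 1, the outer-membrane enzyme that couples long-chain fatty acids to carnitine and so admits them to the mitochondrion for beta-oxidation. Adult heart muscle mainly uses the muscle form, Cpt1b, and an overloaded heart is known to draw less on fatty acids and to express more Cpt1a. The circadian clock, to which much of what follows belongs, is a loop in which ARNTL pairs with CLOCK or NPAS2 at E-box sequences and turns on Per, Cry, Nr1d and the output genes Dbp, Tef and Hlf, whose products then feed back. PER and CRY proteins block the ARNTL complex, while NR1D1 and NR1D2 repress Arntl. In the heart this clock imposes a daily cycle on many genes of metabolism, so the level of its members depends on the hour at which a heart is frozen.

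Poly(A) RNA was counted per gene, with 16299695 to 22070373 counts in the AAV_TAC libraries and 16665281 to 19705488 in the PBS_TAC libraries. Levels are CPM, the gene counts as a share of each library's total, here scaled by TMM factors. Differences are log2 fold changes of AAV_TAC over PBS_TAC with their standard error (SE) from the quasi-likelihood test of edgeR, and a gene counts as called where its p, adjusted over all genes tested by Benjamini-Hochberg, is under 0.05. The hearts had the ventricular markers their label implies: the summed level of Myl2, Myl3, Myh6, Actc1, Tnnt2 and Tnni3, without TMM scaling, was 60106 to 65969 CPM in PBS_TAC and 58918 to 63647 CPM in AAV_TAC. PBS_TAC 2 stood apart from the other overloaded hearts in its adipocyte and atrial markers. Its 6 white adipocyte markers summed to 58.1 CPM, against at most 0.457 CPM in the other PBS_TAC libraries and 0.317 CPM in AAV_TAC, where Adipoq, Lep and Retn were at 0 in all 4 libraries. Its 6 atrial markers summed to 4351 CPM, against 312 and 835 CPM in the other PBS_TAC libraries and 208 to 2056 CPM in AAV_TAC. The sham hearts share the estimate of the spread with the comparison, and among them PBS_sham 3 and PBS_sham 2 stood apart. PBS_sham 3 had smooth muscle markers at 2833 CPM against 251 to 512 CPM in the other 13 libraries of the cohort. Its ventricular sum was 36230 CPM against at least 58179 CPM elsewhere in the cohort, and its endothelial sum 1856 CPM against at most 964 CPM. White adipocyte markers summed to 463 CPM in PBS_sham 2 and 302 CPM in PBS_sham 3. PBS_sham 2 also had the highest atrial sum of the cohort, 6553 CPM.

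Cpt1a RNA itself was not detectably higher in the overloaded hearts that had received the vector. Cpt1a (ENSMUSG00000024900, protein-coding, chr19:3322334-3385733, plus strand, GRCm38) was at 52.0, 62.6, 59.9 and 44.8 CPM in AAV_TAC 1 to 4. In PBS_TAC 1 to 3 it was at 57.1, 61.5 and 40.3 CPM. The groups overlapped, with AAV_TAC 2 and PBS_TAC 2 the highest and PBS_TAC 3 the lowest. The difference was 0.05 (SE 0.21, adjusted p 1 in edgeR), or 1.03-fold with a 95% interval of 0.752 to 1.42-fold, and its sign turned without PBS_TAC 3, without AAV_TAC 2 and under limma voom. An exact two-sided permutation test over the 35 splits of 4 against 3 libraries gave p = 0.743, where the smallest p this design allows is 0.0571. After sham surgery the vector difference of Cpt1a was 0.45 (SE 0.22, adjusted p 0.248), and the interaction of vector and TAC was −0.40 with a 95% interval from −1.05 to 0.25. The table has 1 entry for Cpt1a. Whether reads of the transgene, which may lack parts of the native transcript, were counted to it is not stated, so the entry is a check of the total Cpt1a signal in these counts and not of the enzyme.

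The other members of the carnitine shuttle lay close together in the 2 groups too. None of the 8 genes had separate libraries, none reached an unadjusted p of 0.05, and the median of their log2 fold changes was 0.0035 beside −0.0074 over the 15745 genes tested, and ran from −0.071 without PBS_TAC 3 to 0.059 without PBS_TAC 1. Cpt1b, the muscle form, was at 7.19, 6.27, 8.89 and 7.77 CPM in AAV_TAC and 10.4, 9.04 and 5.55 CPM in PBS_TAC. These values overlap, and they are uncertain, since Cpt1b shares exons with Gm44502 on the same strand and reads in the shared part may have been dropped. Cpt2, which regenerates the acyl-CoA on the inner membrane, was at 173 to 211 CPM in AAV_TAC and 171 to 211 CPM in PBS_TAC. Slc25a20, the carrier of acylcarnitine across that membrane, was at 161 to 197 CPM in AAV_TAC against 152 to 172 CPM in PBS_TAC (0.14, SE 0.35). Crat, the short-chain carnitine acetyltransferase, and Slc22a5, the carnitine importer, differed by 0.08 (SE 0.32) and −0.06 (SE 0.17). Per kilobase of exon, mean levels in AAV_TAC were 80.5 CPM for Cpt2, 7.17 for Cpt1a, 2.23 for Cpt1b and 0.851 for Cpt1c, the neuronal form. In Cpt1a, Cpt1b and Cpt1c alike, PBS_TAC 3 was the lowest of the 7 hearts.

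**Figure D1:**
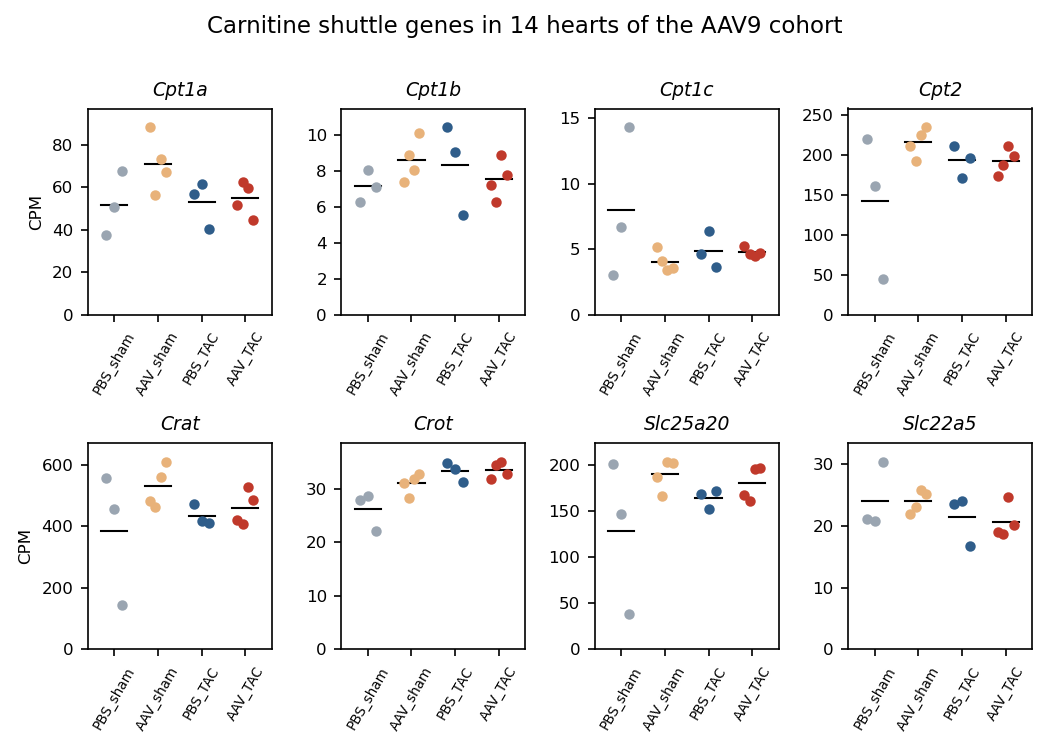
Levels of the 8 carnitine shuttle genes (vertical axes, TMM-scaled CPM from 0) in the 4 groups of the AAV9 cohort; points are libraries and lines are group means. In every panel the AAV_TAC points overlap the PBS_TAC points, and the Cpt1a means are 54.8 and 53.0 CPM.

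Between vector and saline under overload, 6 of 15745 genes were called, or 0.0381% of those tested, and 3 of the 6 were genes of the circadian clock. The clock activator Arntl and the secreted matrix protein gene Spon2 rose (0.0127% of genes were called higher), and the clock repressor Per2, the actin-associated Fam107a, the clock repressor Ciart and the cullin 3 adaptor gene Rhobtb1 fell (0.0254% called lower). Their changes ran from 2.38-fold to 5.97-fold. At an unadjusted p under 0.05 there were 502 genes, or 3.19% of those tested. The count of calls depended on single libraries: 1 gene was called without PBS_TAC 3, and 2 were called without PBS_TAC 1, PBS_TAC 2, AAV_TAC 1 or AAV_TAC 3, with Arntl among them each time. The spread taken from the sham hearts mattered as much, since 56 of 15901 genes (0.352%) were called without PBS_sham 3 and 38 of 14911 (0.255%) from the 7 overloaded hearts alone, both with all 6 of these genes among them.

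Arntl (ENSMUSG00000055116, also known as Bmal1, chr7:113207465-113314126, plus strand) was at 15.7, 19.7, 15.8 and 12.8 CPM in AAV_TAC and at 3.45, 2.42 and 2.17 CPM in PBS_TAC. The lowest vector heart was thus far above the highest saline heart. Arntl rose by 2.58 (SE 0.25, adjusted p 0.001 in edgeR), 5.97-fold, on 251 to 343 counts per AAV_TAC library and 41 to 59 per PBS_TAC library. It overlaps Gm45355 on the opposite strand and, as the strand setting of the counting is not stated, its value is uncertain to that extent.

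Per2 (ENSMUSG00000055866, chr1:91415982-91459324, minus strand), a period protein that blocks the ARNTL complex, was at 9.14, 3.80, 7.06 and 10.1 CPM in AAV_TAC. It was at 42.4, 41.9 and 41.8 CPM in PBS_TAC, so the saline hearts lay within 1 CPM of each other and above all vector hearts. Per2 fell by 2.47 (SE 0.33, adjusted p 0.0121), or 5.55-fold. Ciart (ENSMUSG00000038550, chr3:95878503-95882251, minus strand) encodes a repressor of the same complex. It was at 11.4, 7.94, 8.64 and 15.9 CPM in AAV_TAC and at 33.0, 33.3 and 35.5 CPM in PBS_TAC, again with no overlap, and fell by 1.63 (SE 0.23, adjusted p 0.0175).

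Spon2 (ENSMUSG00000037379, chr5:33198184-33218455, minus strand) was at 8.39, 9.21, 7.57 and 7.53 CPM in AAV_TAC and at 1.46, 1.90 and 1.27 CPM in PBS_TAC. No libraries overlapped, and Spon2 rose by 2.40 (SE 0.29, adjusted p 0.00723), on 24 to 33 counts in the PBS_TAC libraries. The sham hearts were at 6.05 to 8.69 CPM in PBS_sham and 3.80 to 8.88 CPM in AAV_sham. PBS_TAC thus lay below every sham heart, and AAV_TAC overlapped the sham range. PBS_TAC against PBS_sham gave −2.21 (SE 0.30, adjusted p 0.0205 in edgeR). Rhobtb1 (ENSMUSG00000019944, chr10:69151434-69291791, plus strand), which encodes an adaptor of the ubiquitin ligase scaffold cullin 3, was at 89.3, 64.9, 78.2 and 106 CPM in AAV_TAC against 210, 218 and 175 CPM in PBS_TAC. It fell by 1.25 (SE 0.17, adjusted p 0.0121), the smallest of the 6 changes on the highest level, and overlaps A930033H14Rik on the opposite strand. Fam107a (ENSMUSG00000021750, chr14:8296274-8318023, minus strand) was at 2.1, 1.5, 2.27 and 2.50 CPM in AAV_TAC and 5.56, 9.73 and 7.51 CPM in PBS_TAC, separate though low, with 26 to 52 counts in AAV_TAC. It fell by 1.86 (SE 0.26, adjusted p 0.0175).

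**Figure D2:**
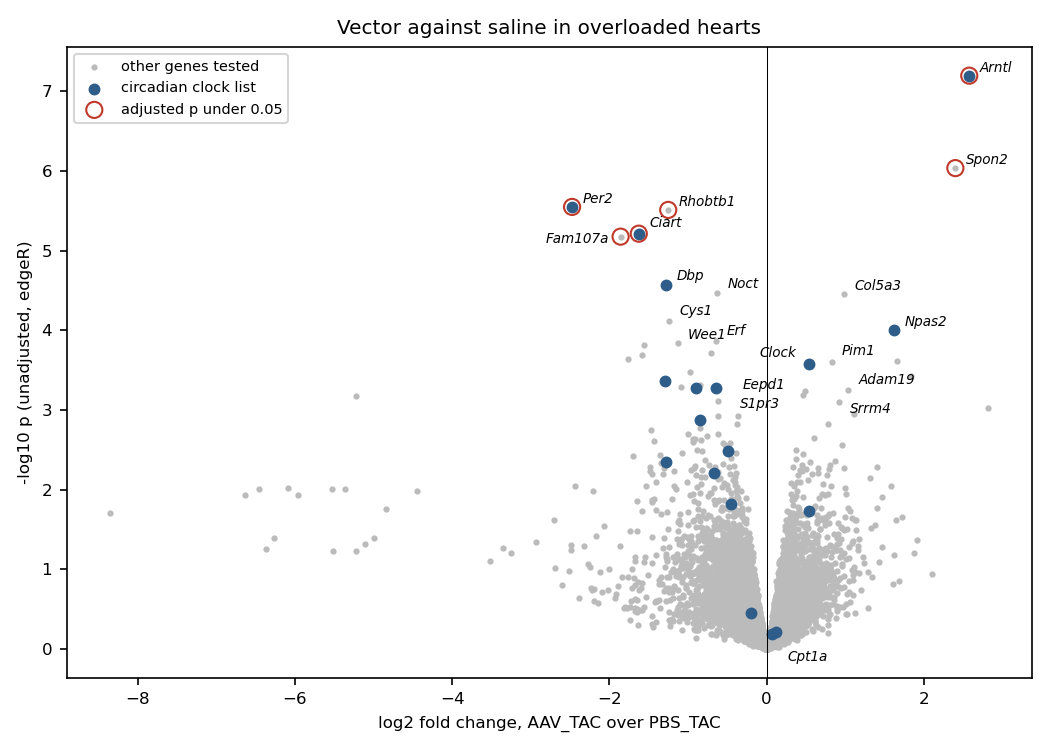
Each point is 1 of 15745 genes tested, with the log2 fold change of AAV_TAC over PBS_TAC on the horizontal axis and −log10 of the unadjusted edgeR p on the vertical axis; blue marks the circadian clock list and red rings the 6 called genes. Arntl stands at the top right at 2.58 and Per2 on the left at −2.47, Cpt1a lies near 0, and the 16 genes to the left of −4 all have their highest level in PBS_TAC 2, the heart with adipocyte transcripts.

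Of the 18 genes of the clock list, 3 were called, where 0.0381% of all genes tested were. An unadjusted p under 0.05 was reached by 15, where 3.19% of all genes reached it. AAV_TAC and PBS_TAC libraries did not overlap in 15, where 8.44% of all genes tested had no overlap (4.19% higher in AAV_TAC, 4.25% lower). Of those 15, the 4 that were higher in AAV_TAC were Arntl, Clock, Npas2 and Nfil3, and the other 11, Per and Cry genes and outputs among them, were lower. The list's median was −0.57, beside −0.0074 over all genes. The list was drawn up knowing earlier results of these data, so these counts describe it and test nothing. Without PBS_sham 3, 12 of the 18 were called, where 0.352% of all genes tested were. Without PBS_TAC 1, 2 or 3, or AAV_TAC 1 or 3, the count was 1.

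Among the activators, Clock was at 37.0, 33.3, 37.8 and 32.8 CPM in AAV_TAC and 23.7, 26.9 and 21.7 CPM in PBS_TAC (0.55, SE 0.11, adjusted p 0.205). Npas2, the partner that can replace CLOCK, was at 4.15, 8.63, 5.74 and 4.08 CPM against 1.81, 1.96 and 1.69 CPM (1.63, SE 0.30, adjusted p 0.142). Neither was called, although the vector hearts were higher in each case without overlap.

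The period and cryptochrome genes were lower with the vector in all 5 cases, with Per2 the one call. Per1 was at 53.4 to 69.8 CPM in AAV_TAC and 101 to 120 CPM in PBS_TAC (−0.90, SE 0.20, adjusted p 0.305). Per3 was at 10.5 to 20.2 CPM against 36.5 to 46.7 CPM (−1.28, SE 0.38). Cry1 (−0.45, SE 0.16) and Cry2 (−0.64, SE 0.14) differed least of the 5, and their libraries still did not overlap.

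In the second loop, which sets Arntl transcription, Nr1d1 and Nr1d2 were mixed. Nr1d1, a repressor of Arntl, was at 114 to 137 CPM in AAV_TAC and 91.7 to 135 CPM in PBS_TAC (0.08, SE 0.17), with overlap. Its relative Nr1d2 was at 55.6 to 75.8 CPM against 96.5 to 118 CPM (−0.67, SE 0.21), with none. Nfil3, a repressor of D-box genes, was at 9.14 to 15.2 CPM against 7.08 to 8.41 CPM (0.54, SE 0.20). Nr1d1 overlaps Thra on the opposite strand and is uncertain.

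All 3 D-box activators, the main outputs of the loop, were lower in the vector hearts without reaching the threshold. Dbp was at 58.9, 41.3, 62.9 and 82.5 CPM in AAV_TAC and 141, 165 and 141 CPM in PBS_TAC (−1.28, SE 0.21, adjusted p 0.060). Hlf was at 16.1, 6.73, 22.5 and 18.1 CPM against 37.7, 44.0 and 34.4 CPM (−1.29, SE 0.28, adjusted p 0.299). Tef was at 86.1 to 120 CPM against 175 to 203 CPM (−0.85, SE 0.21). Of the further E-box repressors, Bhlhe41 was separate (29.0 to 33.2 against 42.1 to 46.4 CPM) and Bhlhe40 overlapped (66.7 to 94.9 against 89.2 to 94.8 CPM). Dbp overlaps Sphk2 on the opposite strand.

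**Figure D3:**
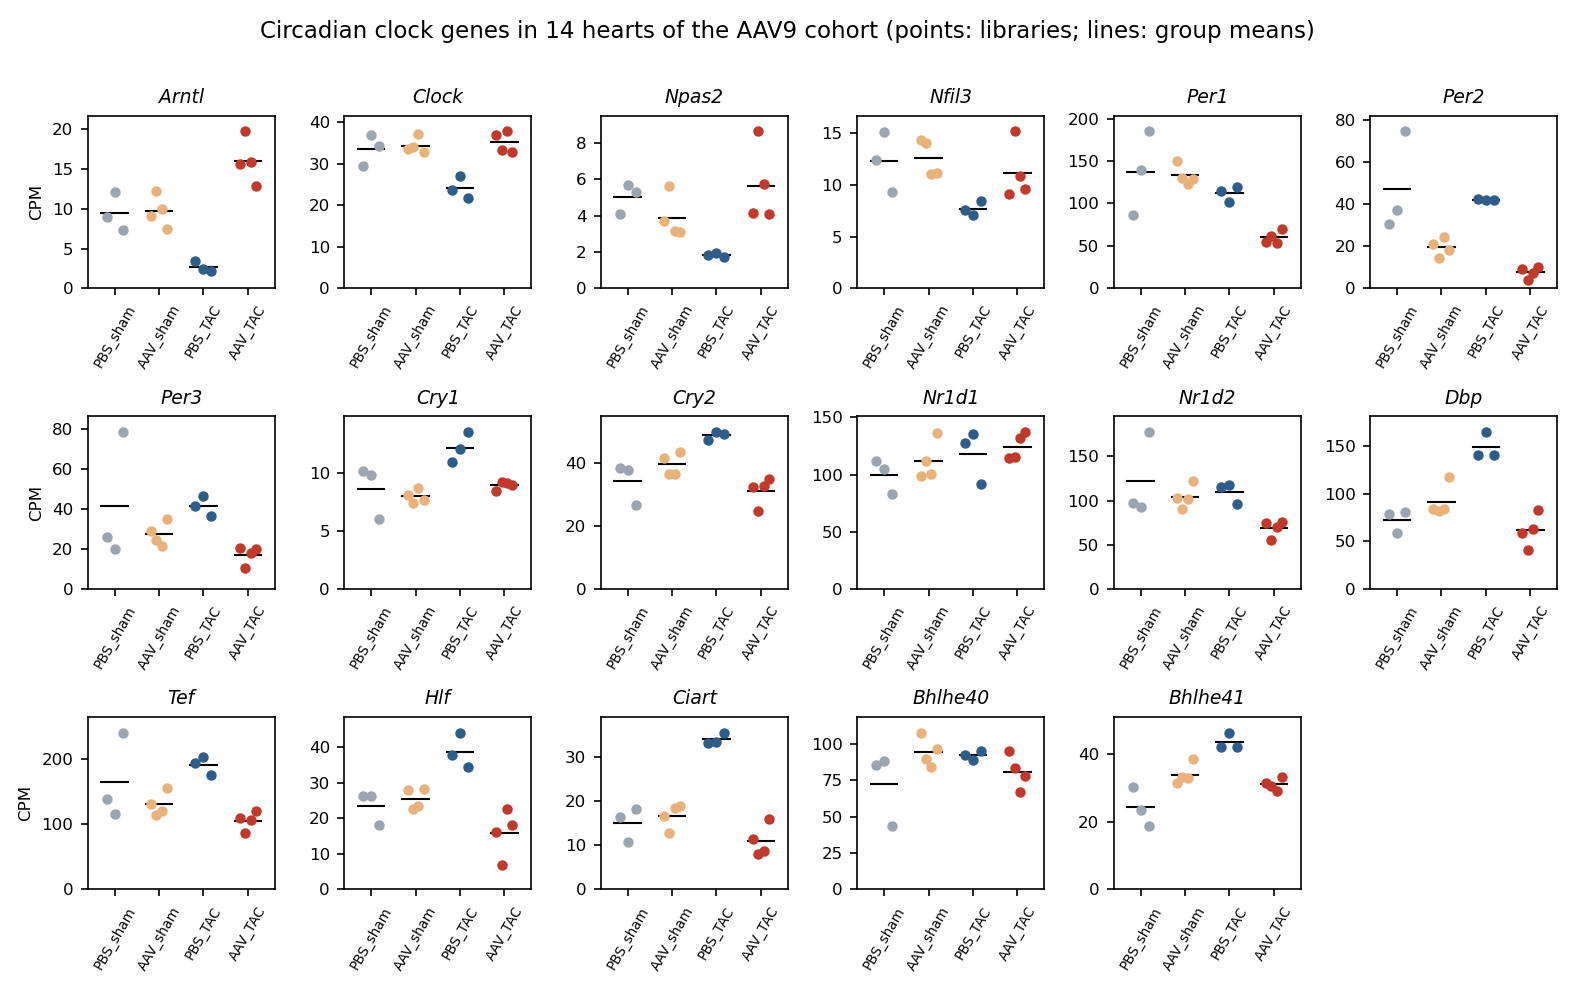
Levels of 17 clock genes (vertical axes, TMM-scaled CPM from 0) in PBS_sham, AAV_sham, PBS_TAC and AAV_TAC; points are libraries and lines are group means. The 3 PBS_TAC points and the 4 AAV_TAC points are separate in 15 panels, all except Nr1d1 and Bhlhe40.

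The 7 sham hearts give a range against which each overloaded group can be placed, without a test. Beside saline sham hearts, PBS_TAC differed in 5 genes over the whole table (0.0318%, and 18.5% at an unadjusted p under 0.05). Arntl was the one clock gene among them, and Spon2 was another of the 5. The comparison of PBS_TAC with PBS_sham shares PBS_TAC with the one above. Its log2 fold change was −1.82 in Arntl, 1.17 in Ciart and 1.03 in Dbp. In PBS_TAC, 10 of the 15 separate clock genes lay outside the sham range: Arntl, Clock, Npas2 and Nfil3 below every sham heart, and Cry1, Cry2, Dbp, Hlf, Ciart and Bhlhe41 above every one. In AAV_TAC, 4 of the 15 did: Arntl above every sham heart, and Per1, Per2 and Nr1d2 below every one. Per3 and Tef overlapped the sham range in both groups. In PBS_TAC this overlap, like that of Per2, rested on 1 PBS_sham heart. Per2 was at 74.5 CPM in PBS_sham 3, at most 37.0 CPM in other sham hearts and 41.8 to 42.4 CPM in PBS_TAC. Scaled with all 30 libraries, Per3 was at 35.6 to 45.0 CPM in PBS_TAC. Its PBS_sham median and maximum were 25.4 and 79.6 CPM, and AAV_sham reached 33.7 CPM. Tef was at 171 to 195 CPM in PBS_TAC, with median 136 and maximum 244 CPM in PBS_sham and up to 151 CPM in AAV_sham. Within AAV_TAC the libraries were uneven, and AAV_TAC 2 lay farthest from the saline hearts in 11 of the 15 genes, AAV_TAC 3 in 3 and AAV_TAC 1 in 1. In hearts without any vector, scaled together with all 30 libraries, Arntl ran from 1.23 to 11.6 CPM in sham-operated cardiac Cpt1a knockouts (KO_sham) and from 5.14 to 22.7 CPM in knockouts after TAC (KO_TAC). In the floxed controls it ran from 5.35 to 16.6 CPM after sham surgery (FF_sham) and from 3.79 to 8.92 CPM after TAC (FF_TAC). The hour of collection is not in the labels, so a difference in hour between the 2 groups and a difference by vector cannot be told apart. In whole-heart RNA, fewer cells of a type and less RNA per cell cannot be told apart either.

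Start-site sequences are shown for 4 genes, because the clock proteins named above act at short motifs and these promoters hold one within 250 bases upstream of the start. They are the upstream windows from RefSeq (GRCm38.p6), 5′ to 3′ on the gene's strand. Capitals mark a match to the E-box CACGTG or the D-box TTATGTAA on either strand. In Ciart the 3 E-boxes begin 116, 58 and 44 bases before the start, and in Per3 the D-boxes begin 205 and 158 bases before it. The E-box begins 166 bases before the start of Per1 and 67 bases before that of Rhobtb1, which have 2 and 3 listed starts.
Ciart, chr3:95882229-95882478, minus strand: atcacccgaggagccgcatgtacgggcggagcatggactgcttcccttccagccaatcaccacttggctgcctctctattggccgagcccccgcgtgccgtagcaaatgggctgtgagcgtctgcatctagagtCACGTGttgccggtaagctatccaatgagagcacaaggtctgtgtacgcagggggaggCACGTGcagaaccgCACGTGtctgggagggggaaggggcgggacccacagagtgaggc
Per3, chr4:151044666-151044915, minus strand: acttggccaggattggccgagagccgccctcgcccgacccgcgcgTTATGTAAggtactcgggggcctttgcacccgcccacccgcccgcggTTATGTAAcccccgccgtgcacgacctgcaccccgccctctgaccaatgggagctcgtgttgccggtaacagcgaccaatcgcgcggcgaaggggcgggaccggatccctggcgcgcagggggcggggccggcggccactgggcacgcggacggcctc
Per1, chr11:69098699-69098948, plus strand: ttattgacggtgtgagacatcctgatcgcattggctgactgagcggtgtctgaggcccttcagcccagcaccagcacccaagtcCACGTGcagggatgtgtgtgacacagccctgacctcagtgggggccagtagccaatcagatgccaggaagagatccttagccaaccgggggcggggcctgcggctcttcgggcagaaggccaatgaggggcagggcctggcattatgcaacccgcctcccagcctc
Rhobtb1, chr10:69212407-69212656, plus strand: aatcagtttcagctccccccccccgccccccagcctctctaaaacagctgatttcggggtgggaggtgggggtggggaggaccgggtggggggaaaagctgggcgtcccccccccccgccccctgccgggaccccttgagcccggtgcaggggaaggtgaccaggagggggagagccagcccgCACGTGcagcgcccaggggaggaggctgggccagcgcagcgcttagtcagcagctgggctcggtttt

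An E-box was found in 6.02% of 32851 such windows, a D-box in 0.819% and the core TAGGTCA of the NR1D response element in 2.23%. Counted by gene, as in the lists below, these were 1854, 264 and 689 of 27025 genes. Of the 18 clock genes, 15 matched the table, and 5 of them held an E-box (Bhlhe41, Ciart, Cry1, Per1 and Tef), 1 a D-box (Per3) and 1 the TAGGTCA core (Nfil3). Among the 10 genes named for the strongest higher levels, 9 matched and Adam19 and Pim1 held an E-box. Of the 10 named for lower levels, 7 matched and Ciart and Rhobtb1 held one. These are letter matches in short windows, and no binding was measured.

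Arntl was the 1 gene (0.00635% of those tested) whose vector difference under overload differed from that after sham surgery by the interaction test. Its vector difference was 2.58 after TAC and 0.04 (SE 0.22) after sham, and the interaction was 2.54 (SE 0.32, adjusted p 0.0299 in edgeR, 95% interval 1.85 to 3.24). The call was lost in 10 of 14 fits that each left out 1 library, PBS_TAC 2 and PBS_TAC 3 among them, with adjusted p from 0.011 to 0.188. It was lost as well with a covariate for atrial tissue and with all libraries of the series, with adjusted p up to 0.553. At an unadjusted p under 0.05 the interaction held 10 of the 18 clock genes, where it held 6.95% of all genes tested. Spon2 and Ciart gave large interactions that were not called: 2.52 (SE 0.38, adjusted p 0.0874) from a sham difference of −0.12, and −1.77 (SE 0.33, adjusted p 0.321) from a sham difference of 0.14. Dbp gave −1.61 (SE 0.30, adjusted p 0.321), with 0.34 after sham.

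After sham surgery 2 genes were called between vector and saline (0.0127%), Banp and Ddit3, and 20.7% of genes had an unadjusted p under 0.05, with 2 of the 18 clock genes, Per2 and Bhlhe41, among them. The other 3 genes called under overload had lower values with the vector after sham surgery as well, and for them the interaction was not called. Fam107a was at 4.99, 2.69, 3.56 and 2.36 CPM in AAV_sham and 9.91, 9.85 and 11.6 CPM in PBS_sham, a difference of −1.61 (SE 0.26, adjusted p 0.0786). Its interaction was −0.24 with a 95% interval from −1.03 to 0.55, an interval that includes 0. Per2 was at 14.2 to 24.2 CPM in AAV_sham and 30.4 to 74.5 CPM in PBS_sham (−1.29, SE 0.31, adjusted p 0.131), with an interaction of −1.19 (95% interval −2.16 to −0.22, adjusted p 0.688). Rhobtb1 was at 87.3 to 121 CPM in AAV_sham and 150 to 170 CPM in PBS_sham (−0.61, SE 0.17, adjusted p 0.133). Cys1, a protein of primary cilia that was not called under overload, gave −1.24 (SE 0.22) there and −1.10 (SE 0.22) after sham. For each of these 4 genes the AAV_sham libraries lay below all PBS_sham libraries.

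**Figure D4:**
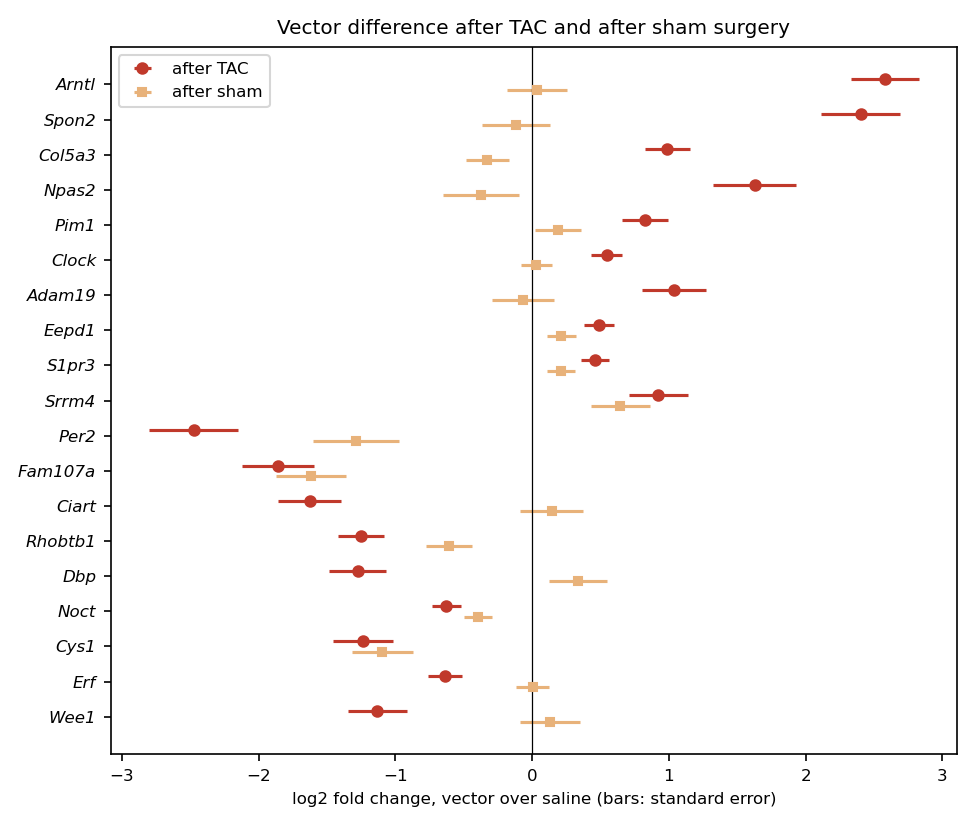
Log2 fold change of vector over saline (horizontal axis, bars 1 SE) after TAC (red circles) and after sham surgery (tan squares) for 10 genes named as higher and 9 named as lower. Arntl, Spon2 and Ciart lie far from 0 after TAC and near 0 after sham, while Fam107a and Cys1 lie at similar values in both.

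Beyond the called genes, 14 more genes with separate libraries had the smallest p in each direction, none of them called, and Clock, Npas2, Dbp and Cys1 of these are described above. Higher in AAV_TAC were Col5a3, a chain of collagen V, at 54.0, 57.7, 63.3 and 49.3 CPM against 32.1, 30.1 and 22.6 CPM (0.99, SE 0.16, adjusted p 0.0609), and the metalloprotease gene Adam19, at 32.8 to 51.8 against 17.2 to 22.6 CPM (1.04, SE 0.23). Srrm4, a regulator of microexon splicing, was at 28.9 to 31.8 CPM against 13.8 to 18.3 CPM (0.92, SE 0.22). The kinase gene Pim1 (0.83, SE 0.17), the nuclease gene Eepd1 (0.49, SE 0.11) and the sphingosine-1-phosphate receptor gene S1pr3 (0.46, SE 0.11) were higher by less. Lower were Noct, a rhythmically expressed phosphatase, at 23.7, 23.1, 27.6 and 30 CPM against 41.3, 40.2 and 39.5 CPM (−0.63, SE 0.10, adjusted p 0.0609), and Wee1, the kinase that holds back mitosis and a known clock output, at 7.31 to 10.1 CPM against 17.2 to 19.1 CPM (−1.13, SE 0.22). Erf, an ETS-family repressor, was at 22.4 to 27 CPM against 33.1 to 41.3 CPM (−0.64, SE 0.12). Pim1, Adam19, S1pr3 and Srrm4 overlap genes on the opposite strand.

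The genes that burn fatty acids were at nearly equal levels with and without the vector. Of 16 beta-oxidation genes, none was called, none reached an unadjusted p of 0.05 and none had separate libraries; 14 were higher and 2 lower, with a median of 0.05. Acadm, the medium-chain dehydrogenase, was at 1052 to 1215 CPM in AAV_TAC and 965 to 1143 CPM in PBS_TAC, and Hadha, of the trifunctional protein, at 1248 to 1540 and 1258 to 1517 CPM. Etfdh, which passes their electrons to the respiratory chain, had the largest difference at 0.12 (SE 0.44). The SE of the 16 genes ran from 0.19 to 0.45, so differences of that size were not detectable. PBS_sham 3, which enters the shared estimate of the spread, had Etfdh at 83.6 CPM against 510 and 677 CPM in the other PBS_sham hearts.

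Uptake, storage and PPAR target genes had a median of −0.028 over 16 genes. Cd36, the fatty acid transporter, was the one with separate libraries, where 8.44% of all genes tested were separate. It was at 1487 to 1586 CPM in AAV_TAC and 1245 to 1478 CPM in PBS_TAC (0.20, SE 0.21). Ucp3, a mitochondrial carrier induced by fatty acids, was at 25.5, 35.6, 94.9 and 65.7 CPM in AAV_TAC and 110, 88.0 and 51.1 CPM in PBS_TAC (−0.58, SE 0.40), with AAV_TAC 1 and 2 low and overlap elsewhere. Pdk4, which diverts pyruvate from oxidation, was at 190 to 396 CPM against 195 to 461 CPM. Among 13 regulators (median 0.05), Ppara was at 9.73 to 11.6 CPM in AAV_TAC and 12.6 to 16 CPM in PBS_TAC (−0.34, SE 0.21, adjusted p 1). Ppargc1b was at 16.1 to 19.7 against 14.3 to 15.7 CPM (0.26, SE 0.36). Only these 2 of the 13 were separate, beside the same 8.44% of all genes, and neither was called.

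Other energy genes gave medians close to 0 with no call. Glycolysis and glucose use had 17 of 20 genes higher with a median of 0.086, the tricarboxylic acid cycle 11 of 14 (0.039) and the nuclear respiratory chain 12 of 19 (0.033), where 48.0% of all genes tested were higher. Leaving out 1 library turned the sign of the median in the beta-oxidation (−0.010 to 0.10), uptake (−0.12 to 0.043), tricarboxylic acid cycle (−0.0081 to 0.088) and respiratory chain lists (−0.031 to 0.14). Hk2, a hexokinase, was at 339 to 371 CPM in AAV_TAC and 312 to 354 CPM in PBS_TAC. Of 13 mitochondrially encoded genes, 12 were higher with a median of 0.14. The large value in that list was mt-Atp8 at 199, 77.9, 69.9 and 54.4 CPM against 67.4, 13.2 and 10.5 CPM (1.73, SE 0.67, adjusted p 1), which shares sequence with mt-Atp6 and is uncertain. That difference was 1.15 without AAV_TAC 1 and 3.08 without PBS_TAC 1. Mitochondrial genes together took 20.3% to 23.4% of counts in AAV_TAC and 19.5% to 22.3% in PBS_TAC.

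Markers of hypertrophy did not separate the 2 groups. None of the 8 genes was called or had separate libraries, and the median was 0.042. The median went from −0.40 without AAV_TAC 2 to 0.25 without AAV_TAC 3, so its sign rests on single libraries. Nppb, the B-type natriuretic peptide, was at 799, 741, 264 and 339 CPM in AAV_TAC and 324, 194 and 515 CPM in PBS_TAC. Myh7, the slow myosin re-expressed under load, was at 2731, 2000, 797 and 937 CPM against 2999, 1656 and 1461 CPM. In both genes AAV_TAC 1 and 2 were the high and AAV_TAC 3 and 4 the low vector hearts. The same order held in Acta1, skeletal actin, at 3215 and 8668 CPM against 1811 and 2689 CPM, beside 2360 to 5050 CPM in PBS_TAC. The clip size of each mouse is not given, so its part was not tested.

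The 28 extracellular matrix genes had a median of −0.14, with 23 lower, none called and none separate. The median was −0.36 without AAV_TAC 2 and 0.0071 without AAV_TAC 4. Ccn5, a matricellular protein, was at 17.9, 32.7, 19 and 21.3 CPM in AAV_TAC and 40.0, 25.7 and 35.9 CPM in PBS_TAC (−0.58, SE 0.23, adjusted p 1). Postn, which marks activated fibroblasts, was at 63.2 to 230 CPM against 111 to 189 CPM. Adult myocyte and calcium genes had a median of 0.037 over 14 genes.

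An overload list from mice outside this cohort gave medians near 0 as well. The 100 genes with the smallest p that were higher in the floxed controls after TAC (FF_TAC) than after sham (FF_sham) had a median of 1.99 there and of −0.095 between AAV_TAC and PBS_TAC, with 39 higher and 61 lower. The 100 that were lower there had a median of −0.050 here, with 37 higher and 63 lower. In the saline hearts of this cohort the same lists differed little between TAC and sham, with medians of 0.10 and −0.052. None of the 200 was called, and with 300 genes a list both medians were −0.036. No gene was called in the floxed comparison, so the lists hold the strongest differences and not called ones.

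**Figure D5:**
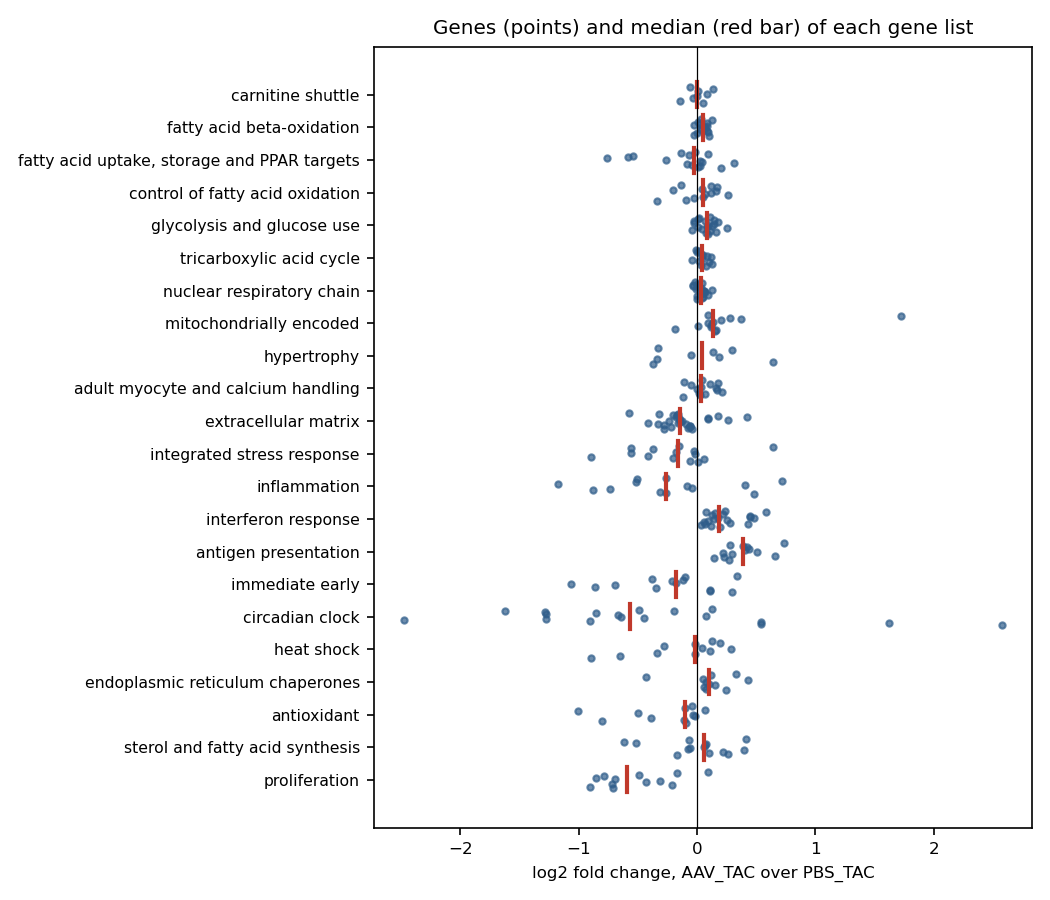
Log2 fold changes of AAV_TAC over PBS_TAC (horizontal axis) for the tested genes of the 22 pathway lists (points), with the median of each list as a red bar. The clock list spans −2.47 to 2.58, and the fatty acid and energy lists lie close to 0.

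All 20 interferon response genes and all 13 antigen presentation genes were higher in AAV_TAC, with medians of 0.18 and 0.38, none called and none at an unadjusted p under 0.05. Leaving out 1 library moved these medians from 0.13 to 0.29, the most without PBS_TAC 1, and from 0.25 without PBS_TAC 3 to 0.61 without PBS_TAC 2. After sham surgery the direction was opposite, with medians of vector over saline of −0.44 and −0.55. At an unadjusted p under 0.05 the interaction held 8 of the 20 and 6 of the 13 genes, where it held 6.95% of all genes tested. Rsad2, an antiviral gene induced by interferon, was at 26 to 30.7 CPM against 17.4 to 22.4 CPM (0.48, SE 0.28), and B2m, the light chain of MHC class I, at 229 to 275 against 212 to 222 CPM. Both were separate, as were Ifi44 and Nlrc5, where 4.19% of all genes tested were separate and higher and 48.0% were higher. Among sham hearts Rsad2 was at 40.7 CPM in PBS_sham 3 and 12.9 to 22.1 CPM in the others. The class II genes H2-Aa, H2-Ab1 and H2-Eb1 were lowest in PBS_TAC 3 and overlapped otherwise. Inflammatory cytokines and chemokines had a median of −0.26 over 13 tested genes, and of −0.030 without PBS_TAC 3.

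Cell-cycle genes were lower with the vector in 11 of 12 cases, with a median of −0.59 and no call. Mki67 was at 6.74, 4.26, 3.15 and 4.22 CPM in AAV_TAC against 7.31, 7.25 and 8.09 CPM in PBS_TAC (−0.71, SE 0.24, adjusted p 1). Top2a was at 4.0, 3.05, 1.77 and 1.97 CPM against 6.20, 4.20 and 4.81 CPM (−0.91, SE 0.27, adjusted p 0.955). Both were separate, and the other 10 genes were not. Of all genes tested, 4.25% were separate and lower, and 48.0% were higher in AAV_TAC. Top2a shares bases with Gm23451 on its own strand and is uncertain.

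Of 11 antioxidant genes, 10 were lower, 4 with separate libraries and an unadjusted p under 0.05, where 8.44% of all genes were separate and 3.19% had such a p. Hmox1, the haem-degrading enzyme, was at 11.3, 7.37, 7.88 and 10.3 CPM against 16.3, 13.4 and 18.7 CPM (−0.80, SE 0.30). Gclm, of glutathione synthesis, was at 21.8 to 23.9 CPM against 28.4 to 31.2 CPM (−0.39, SE 0.17), and Mt1 and Mt2, the metallothioneins, differed by −0.50 (SE 0.20) and −1.0 (SE 0.38). The integrated stress response had 11 of 14 tested genes lower (median −0.16, and −0.074 without PBS_TAC 2), 4 of them separate where 4.25% of all genes were separate and lower. Among the 4 were Chac1 at 2.0 to 3.41 CPM against 3.91 to 5.81 CPM (−0.90, SE 0.28, adjusted p 0.964) and the serine synthesis gene Psat1. Immediate early genes (median −0.17), heat shock genes (−0.018), endoplasmic reticulum chaperones (0.098) and sterol and fatty acid synthesis (0.062) held no call and no unadjusted p under 0.05. The immediate early median was 0.22 without PBS_TAC 3, and the heat shock median went from −0.12 without PBS_TAC 2 to 0.12 without AAV_TAC 3. The sterol median ran from −0.063 to 0.13 without 1 library. Egr1, an immediate early transcription factor, was at 205 CPM in PBS_TAC 3 and 27 to 100 CPM in the other 6 overloaded hearts, and its log2 fold change of −0.86 (SE 0.58) turned to 0.43 without PBS_TAC 3.

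No cell type marker was called. Between AAV_TAC and PBS_TAC, endothelial markers summed to 885 to 964 CPM in AAV_TAC and 711 to 859 CPM in PBS_TAC, without overlap, and 2 of the 6 were separate: Kdr, the VEGF receptor, at 231 to 255 against 147 to 174 CPM, and Cldn5, of tight junctions, at 36.2 to 51.7 against 18.8 to 23.5 CPM. Macrophage markers summed to 231 to 263 CPM in AAV_TAC and 278 to 366 CPM in PBS_TAC, also without overlap, with Csf1r, Cd163 and C1qc separate among 10, where 8.44% of all genes were separate in either direction. Fibroblast (1956 to 2423 against 2066 to 3271 CPM), smooth muscle (278 to 350 against 251 to 381 CPM) and B cell sums (11.5 to 13.8 against 9.95 to 14.9 CPM) overlapped. Pericyte sums (960 to 1160 against 889 to 984 CPM) overlapped as well, though Pdgfrb, Kcnj8 and Vtn of the 5 markers were separate. Neutrophil markers summed to at most 3.25 CPM and T and NK cell markers to at most 3.33 CPM in any overloaded heart. Brown adipocyte, Schwann, mesothelial, skeletal muscle and erythroid sums overlapped between the groups, and lung markers stayed at or under 0.30 CPM. Whether these sums have a part in the differences above was not tested. The calls were the same 6 with a covariate for atrial tissue.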

How the data were processed

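Whole-heart poly(A) RNA was sequenced from 30 hearts as paired reads of stranded libraries, per the labels' protocols. The authors deposited 1 table of gene counts, whole numbers per Ensembl gene and library. Per the submitters' processing notes, HISAT2 2.1.0, featureCounts, Subread 1.5.1 and GRCm38 were used. The strand setting of the counting is not given in the sources used here, so genes with a partner on the opposite strand are uncertain: Arntl, Rhobtb1, Dbp, Cry2, Nr1d1, Tef, Bhlhe40, Bhlhe41, Pim1, Adam19, S1pr3, Srrm4, Cpt1c, Crat, Crot, Hadha, Etfdh, Myh7, Mt2, Nlrc5, Csf1r, Ucp2, Tap2, Dusp1, Hspa1a and Cdkn1a.

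Rows without a gene symbol, 0.0192% of counts, were kept in tests and totals. The 14 libraries of the AAV9 cohort were fitted together in edgeR 4.0.16 (R 4.3.3; TMM, filterByExpr by group, quasi-likelihood test), with AAV_TAC minus PBS_TAC, AAV_sham minus PBS_sham and their interaction as contrasts. Levels of single genes are TMM-scaled CPM, and marker sums are CPM without TMM scaling. Within-group library pairs of the overloaded hearts differed by more than counting noise (chi-square per degree of freedom 9.45 to 30.0), so none was merged. The edgeR fit was also run on counts simulated from the fitted dispersions. That simulation held no outlying library, so it says nothing of how the calls depend on single libraries. DESeq2 1.42.0, limma 3.58.1 and other settings served as alternatives.

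The 10 largest changes in each direction among called genes were named, filled up by smallest p with uncalled genes at 5 CPM or more and without overlap, besides the carnitine shuttle and up to 4 genes of smallest p in each list. Other genes given as examples were chosen after their values were seen. The members and lists were chosen with earlier results of these data known. The microRNA part of the series was not analysed here, and some list members are not reported here.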

Additional observations from a re-analysis of the deposited data

Results flagged for a closer look

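Arntl is listed because its vector difference under overload exceeded that after sham surgery by 2.54 on the log2 scale, by the interaction test.

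Within AAV_TAC, 7 of 85 sets of 4 values (a named gene or marker sum each) had 1 library whose gap to the nearest other was too wide for Dixon's limit at 95%, where chance gives about 1 in 20. AAV_TAC 3 held 4 of them. There Ucp2, a mitochondrial carrier, was at 71.8 CPM against 37.9 to 39.8 CPM in the other vector hearts. The heat shock genes Hspa1a and Dnajb1 were at 3.15 CPM against 17 to 18.6 CPM and at 27.8 CPM against 44.7 to 47.6 CPM. Dusp1, a phosphatase gene of the immediate early list, was at 79.6 CPM against 99.7 to 103.6 CPM.

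AAV_TAC 1 held 2: mt-Atp8 at 199.1 CPM against 54.4 to 77.9 CPM, and Tap2, a peptide transporter for antigen presentation, at 35.01 CPM against 43.4 to 44.4 CPM. In AAV_TAC 2 the brown adipocyte markers summed to 47.2 CPM against 37.0 to 37.7 CPM, with Ucp1 at 0 in all 4 hearts.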

How the results depend on the processing

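AAV_TAC against PBS_TAC gave 36 calls with DESeq2, 97 with limma voom, 14 with no filter, 38 from these 7 libraries alone and 0 in edgeR with all libraries of the series (400 at an unadjusted p under 0.05), each in place of 6; leaving out 1 library gave 1 to 56. Among the gene lists the 3 calls became 10, 14, 6, 8 and 0 under those settings, 5 with the replicate block, and 1 to 12 without 1 library. The interaction, 1 call, gave 16 with DESeq2, 13 with voom, 5 with no filter, 2 with the replicate block, and 0 with all libraries or the atrial covariate, and 0 to 1 without 1 library. The sham comparison, 2 calls, gave 330, 70, 182, 0, 171 and 1 under the same settings, and 1 to 2821 without 1 library, the most without PBS_sham 1. The cause was not tested.

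With the replicate number as a block, AAV_TAC against PBS_TAC gave 7 calls: Fam107a was lost, and Dbp and Npas2 were called. The inflammation median moved from −0.26 to −0.033. Deviations of same-numbered AAV_TAC and PBS_TAC hearts had r of 0.151, −0.264 and −0.407. Across the groups of the cohort, r ran from −0.407 to 0.396 in same-numbered pairs and from −0.445 to 0.548 in pairs with different numbers. The labels give no pairing beyond the number.

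Small carnitine shuttle differences changed sign. Cpt1a: AAV_TAC against PBS_TAC was −0.077 under voom and −0.11 to 0.17 without 1 library. Cpt1c: AAV_TAC against PBS_TAC was 0.0040 with the replicate block and 0.026 with the atrial covariate. Cpt2: AAV_TAC against PBS_TAC was 0.0014 with DESeq2, 0.0010 with RLE size factors, 0.0017 with no filter and 0.0039 with all libraries. Crot: AAV_TAC against PBS_TAC was −0.029 under voom. Without 1 library the ranges were −0.37 to 0.048 in Cpt1b, −0.20 to 0.21 in Cpt1c, −0.081 to 0.069 in Cpt2, −0.030 to 0.047 in Crot, −0.21 to 0.035 in Slc22a5, −0.19 to 0.48 in Fhl1 and −1.40 to 0.43 in Egr1. Leaving out sham libraries was chosen after seeing the data. Counts of 24 to 59 limit Spon2 and Arntl in PBS_TAC.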

Other observations

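Genes that glucocorticoids are known to induce were mostly lower in the vector hearts. The list of 10 was drawn up after values were seen, so it carries no test: 8 were lower, 6 had separate libraries (8.44% of all genes did) and none was called. Zbtb16, a zinc finger repressor, was at 23.5, 15.3, 22.5 and 20.4 CPM in AAV_TAC and 52.6, 78.1 and 52.8 CPM in PBS_TAC (−1.58, SE 0.32, adjusted p 0.199 in edgeR). Fkbp5, a chaperone of the glucocorticoid receptor, was at 16.7 to 17.8 CPM against 25.1 to 36.6 CPM, and Tsc22d3 at 60.9 to 75.7 CPM against 99.3 to 123 CPM. Sgk1 overlapped and was 0.13 higher, and Cdkn1a overlapped and was 0.65 higher. Per1 and Mt2 belong to this list and to the clock and antioxidant lists.

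Without PBS_sham 3, 44 called genes lay outside the clock list, and these examples were chosen after their values were seen. Kdr, with 0.60 (adjusted p 0.0225 in edgeR), and Cldn5, with 1.01 (adjusted p 0.0225), both endothelial, rose in that fit, as did Prox1, a transcription factor of lymphatic endothelium and heart muscle, with 0.47 (adjusted p 0.0218). Their adjusted p with PBS_sham 3 was 0.758, 1 and 1. Tspan4, a tetraspanin, fell by 0.85 in it, from 41.5 to 48.3 CPM in PBS_TAC to 22.3 to 30.7 CPM in AAV_TAC. Slc41a3, a magnesium transporter of mitochondria, rose by 0.91, from 39.4 to 45.3 CPM to 64.8 to 95.1 CPM.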
